A study of Homo sapiens with 12 samples.

Results

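The drug efflux ABC transporters are 8 membrane pumps known from multidrug resistance: ABCB1, ABCC1, ABCC2, ABCC3, ABCC4, ABCC5, ABCC10 and ABCG2. They were taken by gene symbol, whatever their values, from the 60649 genes listed in each count file, and all 8 were found. Of the 8, 6 had enough reads to be tested, among 16683 genes tested in all; ABCC2 and ABCC3 did not. SBC3 is a human small cell lung cancer (SCLC) line, grown here as spheroids, which are cell aggregates kept in three-dimensional culture. The mRNA of 4 groups of 3 libraries each was sequenced: Control, Teriflunomide, Lurbinectedin, and both drugs together (Teriflunomide/Lurbinectedin, called the combination below). Teriflunomide inhibits dihydroorotate dehydrogenase, an enzyme of pyrimidine synthesis, and lurbinectedin, used in clinics against SCLC, binds DNA and stops RNA polymerase II from transcribing it. The labels give no doses, no treatment times and no vehicle, all groups come from 1 cell line, and nothing states that the 3 libraries of a group came from separate cultures.

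ABC proteins use the energy of ATP to move molecules across membranes. ABCB1 (P-glycoprotein), ABCC1 (MRP1) and ABCG2 (BCRP) are the pumps most often linked to resistance to chemotherapy, because each exports a wide range of drugs. The ABCC members other than ABCC10 are best known for organic anions: ABCC1, ABCC2 and ABCC3 carry conjugates of glutathione or glucuronic acid, and ABCC4 and ABCC5 also carry cyclic nucleotides and nucleotide analogues. ABCG2 works as a pair of half-size proteins, and teriflunomide is among the compounds known to inhibit it.

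Libraries held 23206414 to 33222162 counted reads. Teriflunomide replicate 3 and combination replicate 2 stood apart from their groups: mitochondrially encoded genes took 22.6% of reads in the former, against 8.42% and 8.43% in the other 2 teriflunomide libraries, and 24.9% in the latter, against 14.6% and 13.1%. CPM below are counts scaled to a library's effective total. Calls of the tested pumps that changed when 1 or both of these libraries were left out are given with and without them. The sums, shares and ratios of the pumps, and the values of other named genes, include both libraries. The SCLC label was checked on marker genes. NEUROD1 (4.03 CPM in control) and SYP (16.8 CPM) were detected, whereas NCAM1 had 6 reads over all 12 libraries and INSM1 had none; YAP1 stood at 246 CPM. The summed leukocyte markers stayed at or below 0.447 CPM and the endothelial ones at or below 0.579 CPM in every library. Of the fibroblast markers, COL1A1 and COL1A2 reached 266 and 270 CPM in control, but DCN had 1 read in all and LUM none; the summed fibroblast list ranged from 520 to 550 CPM in control and from 187 to 221 CPM with lurbinectedin, and its part in the results was not tested.

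In untreated spheroids the 8 pumps covered a wide range of levels. Levels are compared between genes only as CPM per kilobase of exon, where CPM were scaled by TMM, a correction for library composition. ABCC1 was highest at 17.6 ± 0.61 CPM per kb (mean ± SD, n = 3, here and below). ABCC4 followed at 10.5 ± 0.628, ABCC5 at 3.98 ± 0.0706 and ABCC10 at 2.78 ± 0.166 CPM per kb. ABCG2 came next at 0.28 ± 0.0451 and ABCB1 at 0.0887 ± 0.0138 CPM per kb, and ABCC2 and ABCC3 closed the order at 0.029 and 0.00104. No neighbours in this control order overlapped in their 3 libraries. The best-known pump, ABCB1, had 15 to 20 reads per control library, against 4432 to 5329 for ABCC1.

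With lurbinectedin the order of the abundant pumps changed. ABCC5 was highest at 3.96 ± 0.31 CPM per kb, then ABCC10 at 3.06 ± 0.248, ABCC1 at 2.26 ± 0.306 and ABCC4 at 1.12 ± 0.0906, with no overlap between neighbours. Below them, ABCG2 at 0.29 ± 0.0903 and ABCB1 at 0.171 ± 0.0598 overlapped, as did ABCC2 and ABCC3. In the combination ABCC5 again led at 3.98 ± 0.557 CPM per kb and ABCC4 was lowest of the 4 at 1.22 ± 0.118, while ABCC1 (3.07 ± 0.919) overlapped both ABCC5 and ABCC10 (2.52 ± 0.409). With teriflunomide the means kept the control order, from 13.2 ± 1.80 CPM per kb for ABCC1 down to 2.94 ± 1.12 for ABCC10, and ABCC4 stayed above ABCC5.

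**Figure D1:**
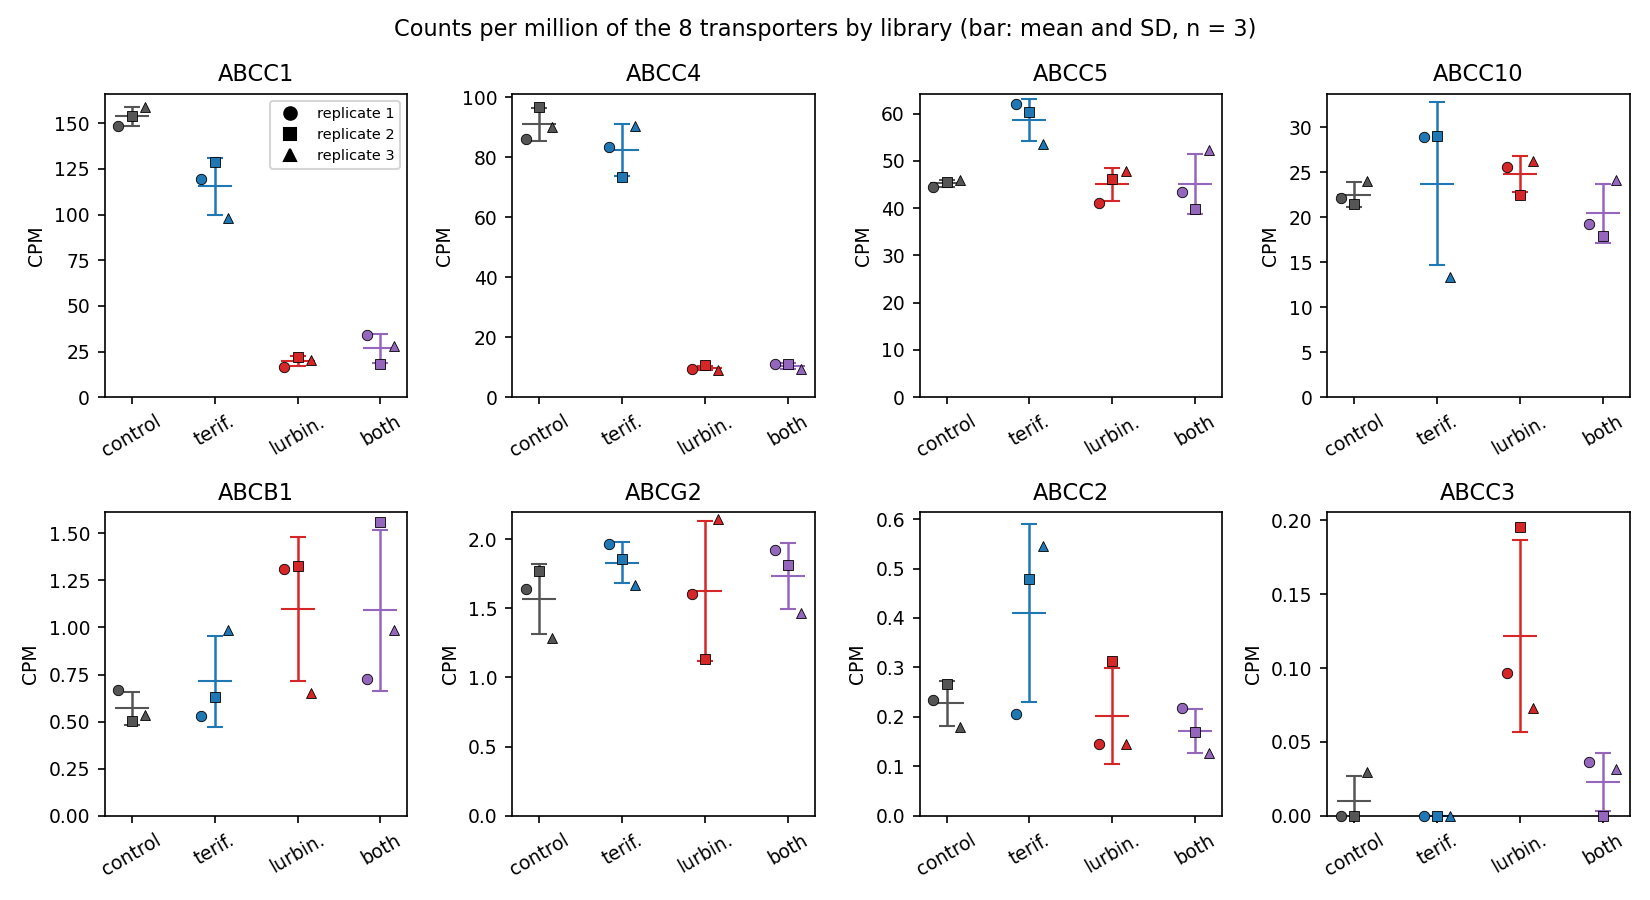
Level of each of the 8 pumps in CPM on the vertical axis, 1 panel a gene with its own scale, for the 3 libraries of each group (points, the shape giving the replicate) with their mean and SD (bars). ABCC1 and ABCC4 fall from means of 154 and 91.0 CPM in control to 19.7 and 9.71 CPM with lurbinectedin, while ABCC5 stays near 45 CPM in control, lurbinectedin and the combination.

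The first question is how lurbinectedin alone moved the pumps. ABCC1 and ABCC4, the 2 most abundant in control, fell steeply; ABCB1, with few reads, rose; and ABCC5, ABCC10 and ABCG2 did not pass the test. In edgeR's quasi-likelihood test with Benjamini-Hochberg adjustment over all genes tested, at an adjusted p of 0.05, 3 of the 6 tested pumps were called, where 71.6% of all genes tested were. The count is thus no larger than the background. Because 35.7% of all genes were called lower and 36.0% higher, a call alone does not set a member apart. The size of each change is given below.

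ABCC4 (ENSG00000125257.16) exports cyclic nucleotides, prostaglandins and nucleotide analogues; in hg38 it lies on the minus strand of chromosome 13 from 95019835 to 95301475, a span of 281.6 kb with 8629 bases of exon. Its level was 86.1, 96.8 and 90.0 CPM in the 3 control libraries and 9.40, 10.6 and 9.12 CPM in the 3 lurbinectedin libraries. All lurbinectedin libraries were far below all control libraries; groups did not overlap for 83.2% of all genes tested. The difference was -3.23 on the log2 scale (SE 0.128, 95% interval -3.50 to -2.95, adjusted p = 1.2e-10), that is 9.37-fold lower. Only 5.43% of the 16683 genes had as low a value in this comparison.

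ABCC1 (ENSG00000103222.20) exports drugs and leukotriene C4, the latter a glutathione conjugate; it lies on the plus strand of chromosome 16 from 15949138 to 16143257, a span of 194.1 kb with 8736 bases of exon. It stood at 148.5, 153.9 and 159.2 CPM in control and at 16.7, 21.8 and 20.6 CPM with lurbinectedin. The groups again did not overlap. The difference was -2.96 on the log2 scale (SE 0.197, 95% interval -3.38 to -2.54, adjusted p = 1.15e-08), or 7.79-fold lower, and 6.59% of genes had as low a value. CPM are shares of a library, so no fall, rise or unchanged level given here is the change in the amount of RNA per cell. Whether all cells changed alike was not measured.

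ABCC5 (ENSG00000114770.17), an exporter of cyclic nucleotides and nucleotide analogues that is related to ABCC4 in its cargo, did not follow it. It lies on the minus strand of chromosome 3 from 183919934 to 184017939, a span of 98.0 kb with 11365 bases of exon. Its control libraries had 44.4, 45.4 and 45.9 CPM and its lurbinectedin libraries 41.0, 46.3 and 47.8 CPM. The control values lay inside the range with lurbinectedin. The log2 difference was -0.01 with a 95% interval from -0.26 to 0.25 (adjusted p = 0.96, edgeR), so a fall the size of that of ABCC1 or ABCC4 lies outside the interval. With library size as the only scaling the difference was -0.24, also not called.

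ABCC10 (ENSG00000124574.15), known as MRP7 and able to carry taxanes in model systems, lies on the plus strand of chromosome 6 from 43427366 to 43450427. With 23.1 kb it has the shortest span of the 8. Its levels were 22.1, 21.4 and 24.0 CPM in control and 25.6, 22.5 and 26.2 CPM with lurbinectedin, and the groups overlapped. The log2 difference was 0.14 (95% interval -0.36 to 0.63, adjusted p = 0.603, edgeR). Of its exon bases, 76 (0.94%) also belong to DLK2 on the other strand, which had 1985 reads over the 12 libraries against 7987 for ABCC10; whether the counting used strand is not given in the sources used here.

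The sequences just before the annotated start are shown for ABCC4, which fell, for ABCC5 and ABCC10, which are of the same subfamily and did not pass the test, and for ABCB1, which rose. Each window is the 250 bases upstream of a RefSeq start in GRCh38.p14, written 5′ to 3′ on the gene's own strand. RefSeq windows matched 6 of the 8 members. Capitals mark matches, on either strand, to any of 3 short promoter motifs. The GC box was searched with the letters GGGCGG. The TATA box was searched with the letters TATAAA. The CCAAT box was searched by the letters of its name.
ABCC4 (chr13:95301452-95301701, minus strand): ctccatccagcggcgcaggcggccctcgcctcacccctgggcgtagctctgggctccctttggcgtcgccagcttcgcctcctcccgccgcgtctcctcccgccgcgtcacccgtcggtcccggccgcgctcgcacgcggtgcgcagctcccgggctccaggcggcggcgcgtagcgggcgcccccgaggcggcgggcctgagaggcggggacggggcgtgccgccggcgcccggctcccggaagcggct
ABCC5 (chr3:184017885-184018134, minus strand): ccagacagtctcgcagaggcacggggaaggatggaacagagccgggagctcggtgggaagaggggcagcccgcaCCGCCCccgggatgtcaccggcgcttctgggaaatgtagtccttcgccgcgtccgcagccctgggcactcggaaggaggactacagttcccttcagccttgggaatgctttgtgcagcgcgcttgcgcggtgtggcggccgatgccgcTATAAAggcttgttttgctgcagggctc
ABCC10 (chr6:43427613-43427862, plus strand): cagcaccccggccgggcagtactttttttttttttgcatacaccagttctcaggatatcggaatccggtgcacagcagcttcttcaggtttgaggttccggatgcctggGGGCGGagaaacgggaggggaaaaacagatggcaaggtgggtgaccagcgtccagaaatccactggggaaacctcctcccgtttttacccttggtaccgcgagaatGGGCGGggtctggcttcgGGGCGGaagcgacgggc
ABCB1 (chr7:87600885-87601134, minus strand, the downstream of its annotated starts): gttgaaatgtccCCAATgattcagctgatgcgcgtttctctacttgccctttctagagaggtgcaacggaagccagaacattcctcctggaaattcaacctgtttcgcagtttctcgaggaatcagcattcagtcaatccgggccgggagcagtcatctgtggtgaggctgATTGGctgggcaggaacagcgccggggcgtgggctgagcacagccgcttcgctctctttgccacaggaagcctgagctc
The ABCC4 window was the richest of these in G and C, at 80.4%, more than in 97.1% of 35116 such windows, with 42 CpG dinucleotides (more than in 98.6%), and it held none of the 3 motifs. The ABCC5 window had 64.8% GC, 21 CpG, 1 GC box and 1 TATA box. The ABCC10 window shown had 58% GC, 16 CpG and 3 GC boxes, and that of its other annotated start had 53.6% GC, 14 CpG, 1 TATA box and no GC box. The ABCB1 window shown had 55.6% GC, 12 CpG and 2 CCAAT boxes, and that of its upstream start had 39.2% GC, 1 CpG and none of the motifs. The motifs thus differ between starts of 1 gene, and the counts do not tell which start was used. Among all windows, 42.6% held a GC box, 32% a CCAAT box and 10.7% a TATA box. A match is a description of letters only, and binding was not measured.

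ABCB1 (ENSG00000085563.15), the classical multidrug pump, rose from a very low level. It lies on the minus strand of chromosome 7 from 87503017 to 87713323, a span of 210.3 kb from its upstream start and 97.9 kb from the downstream start whose window is shown above. The control libraries had 20, 15 and 18 reads, or 0.670, 0.501 and 0.538 CPM. The lurbinectedin libraries had 27, 34 and 18 reads, or 1.31, 1.33 and 0.654 CPM. Lurbinectedin replicates 1 and 2 were above every control library, while replicate 3 was inside the control range. The log2 difference was 0.93 (SE 0.369, 95% interval 0.13 to 1.72, adjusted p = 0.0365, edgeR). The call was lost in 6 of 20 alternatives, over which the adjusted p ranged from 0.00637 to 0.141: the exclusion of control replicate 2 or 3, or of lurbinectedin replicate 1 or 2 (0.78 and 0.73 on the log2 scale), scaling by library size alone (0.69, adjusted p = 0.0759), and the replicate block, which takes numbers shared across groups as a term (0.91, adjusted p = 0.0559).

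ABCG2 (ENSG00000118777.12), the pump that teriflunomide is known to inhibit, stayed low in all groups. It lies on the minus strand of chromosome 4 from 88090150 to 88231628, a span of 141.5 kb; other annotated starts give 68.5 to 69.1 kb. It had 43 to 53 reads per control library and 29 to 59 with lurbinectedin. Its levels were 1.64, 1.77 and 1.28 CPM in control, 1.60, 1.13 and 2.14 CPM with lurbinectedin, and 1.92, 1.81 and 1.47 CPM in the combination. With teriflunomide they were 1.96, 1.86 and 1.67 CPM. All 4 groups overlapped one another. The log2 difference from control was 0.06 with lurbinectedin (95% interval -0.45 to 0.58, adjusted p = 0.822), 0.23 with teriflunomide (adjusted p = 0.556) and 0.14 in the combination (adjusted p = 0.599), all from edgeR.

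ABCC2 (ENSG00000023839.12, chromosome 10, 99782640 to 99852594, plus strand) and ABCC3 (ENSG00000108846.16, chromosome 17, 50634777 to 50692253, plus strand) are conjugate exporters best known from liver and gut. ABCC2 had 7, 8 and 6 reads in the control libraries and 7, 16 and 16 after teriflunomide. It had 3, 8 and 4 reads after lurbinectedin and 6, 4 and 4 in the combination. Scaled for library size, the summed teriflunomide reads were 1.79 times the control sum, with a 95% interval of 1.03 to 3.20 that covers counting error only; replicate 1 lay inside the control range. ABCC3 had 1 read over the 3 control libraries, none with teriflunomide, 2, 5 and 2 with lurbinectedin, and 2 over the 3 combination libraries. The summed lurbinectedin reads, 9 against 1, gave a ratio of 11.4 with an interval from 1.58 to 499. A count of 0 allows up to 3 reads, which correspond to 0.0879 to 0.145 CPM depending on the library. Fitted by edgeR without the filter on low counts, ABCC3 had an adjusted p of 0.0753 with lurbinectedin and ABCC2 one of 0.5 with teriflunomide, both against control. In that fit ABCC2 was called lower in the combination against teriflunomide (-1.26, SE 0.528, adjusted p = 0.046), although the groups overlapped. ABCC2 also passed the filter in 10 of the 12 fits that left out 1 library. It failed the filter without teriflunomide replicate 2 or 3, the libraries with 16 reads each. This comparison was called in 8 of the 10 fits, the exceptions being those without combination replicate 2 or 3. Over these 10 and the fit without the filter the log2 difference ran from -1.57 to -1.04 and the edgeR adjusted p from 0.00542 to 0.0998. All these fits kept both high teriflunomide libraries, so they cannot show whether the call holds without either.

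The next question is what teriflunomide did alone. By edgeR none of the 6 tested pumps was called against control, where 6.01% of all genes tested were. DESeq2 called ABCC5 higher (0.36, adjusted p = 0.0312), and edgeR without the filter on low counts called ABCC1 lower (-0.44, adjusted p = 0.0359). ABCC5 and ABCC1 were the 2 pumps whose groups did not overlap, in opposite directions; 36.8% of all genes did not overlap in this comparison. ABCC5 had 61.9, 60.3 and 53.5 CPM with teriflunomide, each above its highest control library, a log2 difference of 0.37 (SE 0.117, 95% interval 0.12 to 0.63, adjusted p = 0.0747, edgeR). ABCC1 had 119.5, 128.8 and 98.1 CPM, each below its lowest control library, a difference of -0.41 (SE 0.181, 95% interval -0.80 to -0.03, adjusted p = 0.174).

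ABCC4 had 83.4, 73.4 and 90.4 CPM with teriflunomide and overlapped control (log2 difference -0.14, adjusted p = 0.453, edgeR). ABCC10 had 28.9 and 28.98 CPM in teriflunomide replicates 1 and 2, above control, and 13.3 CPM in replicate 3, below it. Its difference over the 3 libraries was 0.08 (adjusted p = 0.859). ABCB1, with 18 to 29 reads per library, differed by 0.31 (adjusted p = 0.632), and by 0.02 without teriflunomide replicate 3 (adjusted p = 0.988, edgeR). Without teriflunomide replicate 3 and combination replicate 2, an alternative added after seeing the data, 3 pumps were called: ABCC5 (0.43, adjusted p = 0.00194), ABCC10 (0.36, adjusted p = 0.0192) and ABCC1 (-0.31, adjusted p = 0.0275). Calls rose over all genes too, to 2757 of the 16945 tested in that edgeR fit. Without teriflunomide replicate 3 alone, ABCC5 was called at 0.43 (adjusted p = 0.0162, edgeR), where 1555 of 17072 genes were called.

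**Figure D2:**
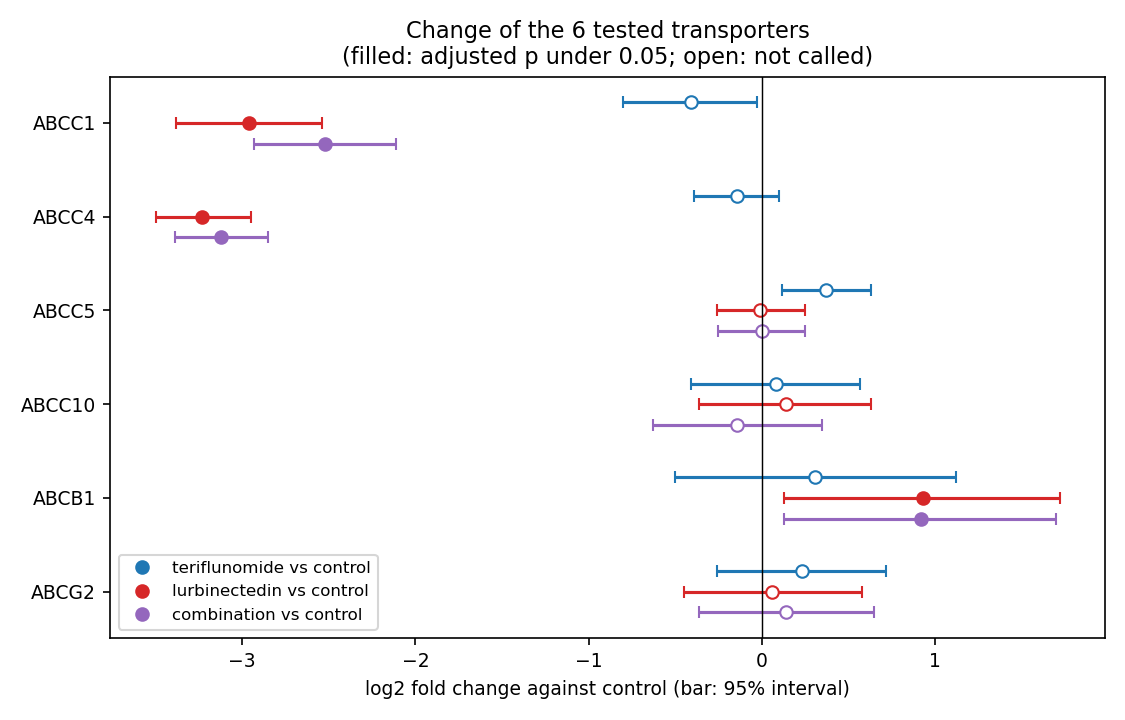
Log2 difference of each of the 6 tested pumps from control on the horizontal axis, for teriflunomide, lurbinectedin and the combination, as points with 95% intervals from edgeR; filled points passed an adjusted p of 0.05. ABCC1 and ABCC4 lie between -3.23 and -2.52 with lurbinectedin and the combination against control, and no point is filled for teriflunomide against control.

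In the combination against control, ABCC1 and ABCC4 fell again and ABCB1 was again called higher: 3 of the 6 tested pumps, where 68.4% of all genes tested were called, 34.1% higher and 34.4% lower. Both comparisons use the same control libraries. ABCC4 had 11.11, 11.04 and 9.317 CPM, a log2 difference of -3.12 from control (SE 0.126, adjusted p = 1.71e-10, edgeR), or 8.68-fold lower. ABCC1 had 34.2, 18.3 and 27.9 CPM, a difference of -2.52 (SE 0.192, adjusted p = 5.75e-08), or 5.73-fold lower. The lowest of these is combination replicate 2, which had the high mitochondrial share; the other 2 were above all lurbinectedin libraries.

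ABCB1 had 20, 37 and 31 reads in the combination, or 0.724, 1.56 and 0.989 CPM, all above the highest control library; 77.2% of all genes did not overlap here. Its difference was 0.92 (SE 0.364, adjusted p = 0.0376, edgeR). Without combination replicate 2, the highest, it was 0.59 (adjusted p = 0.187), and the call was lost in 8 of 20 alternatives, among them scaling by library size alone (0.73, adjusted p = 0.0621), the replicate block (0.90, adjusted p = 0.0581) and the exclusion of control replicate 1, 2 or 3 or of combination replicate 3. ABCC5 (43.5, 39.9 and 52.2 CPM) and ABCC10 (19.2, 17.9 and 24.2 CPM) did not pass the test against control (adjusted p = 0.994 and 0.604).

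Whether teriflunomide changed the pumps on top of lurbinectedin is answered by the combination against lurbinectedin. No pump was called there, and 0.0% of all genes were by edgeR, although 2599 genes had an unadjusted p below 0.05 and DESeq2 called 584 genes. ABCC1 had the largest difference among the 6, 0.44 (SE 0.188, 95% interval 0.04 to 0.85, adjusted p = 0.287). Combination replicates 1 and 3 were above, and replicate 2 within, the lurbinectedin range. Without teriflunomide replicate 3 and combination replicate 2 the ABCC1 difference was 0.65 (adjusted p = 0.000363, edgeR). That fit called 3640 of 16945 genes in this comparison.

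The interaction asks whether the change made by teriflunomide differed between spheroids with and without lurbinectedin. No pump was called, where 0.258% of all genes were. For ABCC1 teriflunomide gave -0.41 without lurbinectedin and 0.44 with it, a difference of 0.86 (SE 0.261, 95% interval 0.30 to 1.42, adjusted p = 0.257, edgeR). For ABCC5 the 2 values gave an interaction of -0.37 (adjusted p = 0.469) and for ABCC10 one of -0.36 (adjusted p = 0.776). Without teriflunomide replicate 3 and combination replicate 2, ABCC1 (0.96, adjusted p = 0.000277) and ABCC10 (-0.55, adjusted p = 0.021) were called by edgeR. So were 1839 of all 16945 genes in that fit. Single exclusions called ABCC1 without combination replicate 2 (1.08, adjusted p = 0.0446) and ABCC10 without teriflunomide replicate 3 (-0.63, adjusted p = 0.043). These 2 edgeR fits called 66 of 17043 and 616 of 17072 genes.

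Lurbinectedin on top of teriflunomide, read as the combination against teriflunomide, called 3 of the 6 pumps lower, where 70.9% of all genes tested were called and 35.8% were called lower. ABCC4 fell by 2.97 on the log2 scale (SE 0.126, adjusted p = 2.55e-10, edgeR) and ABCC1 fell by 2.10 (SE 0.19, adjusted p = 2.83e-07). ABCC5 fell by 0.37 (SE 0.118, adjusted p = 0.0111); its 3 combination libraries were all below the 3 teriflunomide libraries, and 70.7% of all genes did not overlap. This last call was lost without combination replicate 2 (-0.29, adjusted p = 0.0524) and in a fit of only these groups (-0.37, adjusted p = 0.0734). Without teriflunomide replicate 3, 5 pumps were called by edgeR, where 12497 of 17072 genes tested in that fit were. The added ones were ABCC10 (-0.51, adjusted p = 0.00112) and ABCB1 (0.88, adjusted p = 0.0407).

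Added up per kilobase, the mRNA of the 8 pumps fell from 35.3 ± 1.10 CPM per kb in control to 10.9 ± 0.555 with lurbinectedin and 11.3 ± 1.41 in the combination, and was 31.3 ± 2.40 with teriflunomide. The make-up of this sum changed as well. ABCC1 gave 49.9 ± 0.787% of it in control and 20.7 ± 2.01% with lurbinectedin, and ABCC4 went from 29.8% to 10.3%. ABCC5 went from 11.3% to 36.3% and ABCC10 from 7.88% to 28.1%, although their own levels did not pass the test. The ratio of ABCC1 to ABCC5 per kilobase was 4.42 ± 0.0777 in control, 2.56 ± 0.202 with teriflunomide, 0.569 ± 0.0422 with lurbinectedin and 0.772 ± 0.224 in the combination, and only the last 2 groups overlapped. These sums are descriptions and carry no test.

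**Figure D3:**
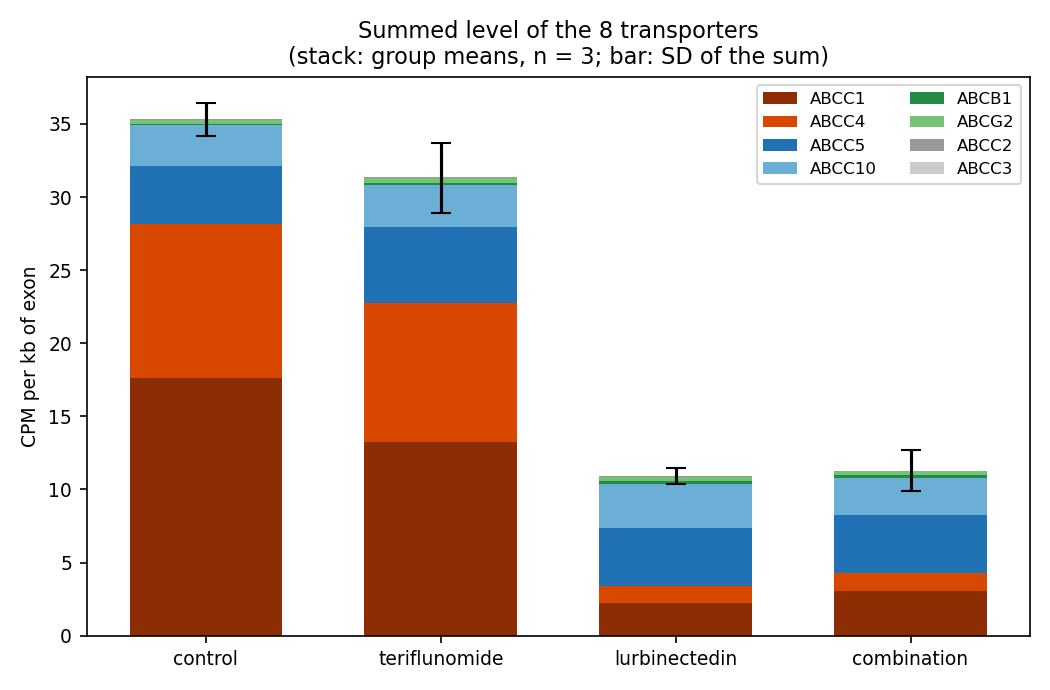
Summed level of the 8 pumps in CPM per kilobase of exon on the vertical axis, as the mean of 3 libraries in each group, split by gene, with the SD of the sum as a bar. The bar falls from 35.3 in control to 10.9 with lurbinectedin, and ABCC5 and ABCC10 together take more of the shorter bar than ABCC1 and ABCC4.

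The members differ in the length of genome they span, and in these libraries the change with lurbinectedin moved with span over all genes. Genes were put in 5 equal bins by span. From the shortest bin to the longest, the median log2 difference with lurbinectedin was 0.69, 0.62, 0.28, -0.36 and -1.86. In the longest bin, 82.9 to 2305 kb, 83.7% of genes were called lower and 5.83% higher. ABCC1, ABCC4, ABCC5, ABCB1 and ABCG2 all lie in that bin and ABCC10 in the middle one.

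ABCC4 (-3.23) was below the lower quartile of the longest bin, which was -3.12, and ABCC1 (-2.96) was between that quartile and the median. ABCC5 (-0.01), ABCG2 (0.06) and ABCB1 (0.93) were above the upper quartile of -0.91. Measured from other annotated starts, ABCG2 would fall in the bin of 35.9 to 82.9 kb and lie inside its quartiles of -0.99 to 0.26, while ABCB1 would stay in the longest. With teriflunomide the bin medians ran only from -0.09 to 0.15. The part of span in the members' changes was not tested.

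**Figure D4:**
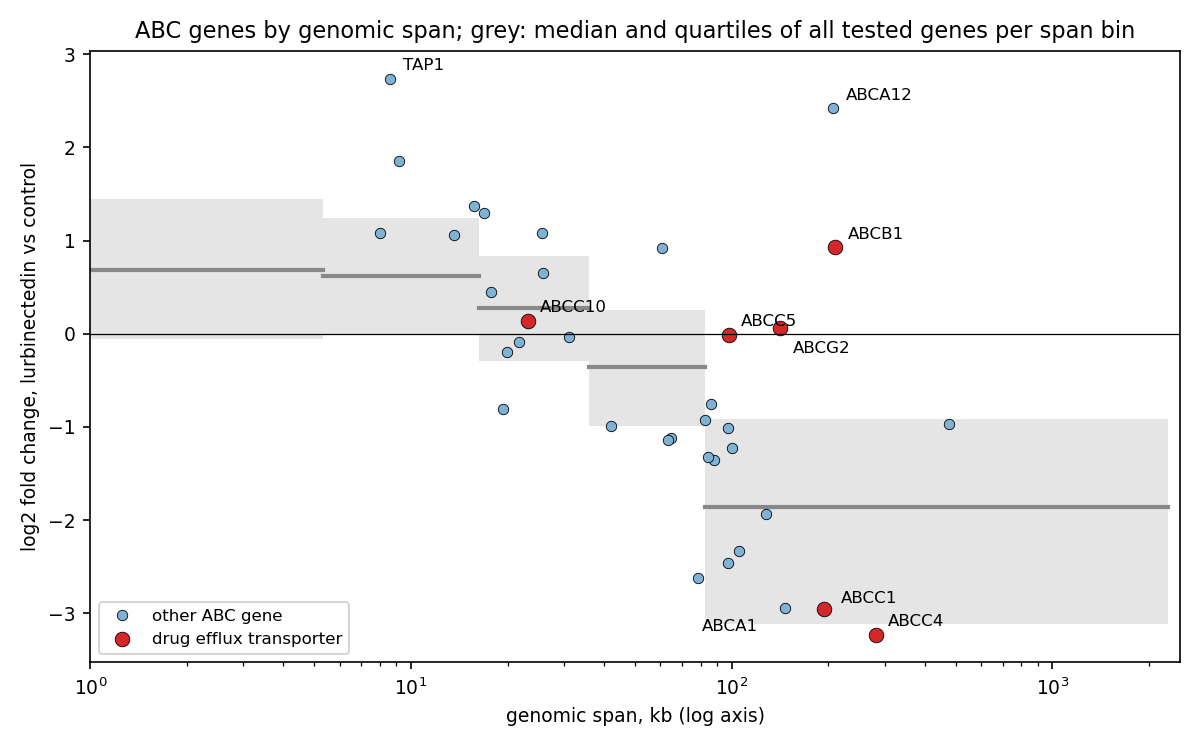
Log2 difference of ABC genes with lurbinectedin against control on the vertical axis, against genomic span in kb on a logarithmic horizontal axis that starts at 1 kb; grey lines and boxes give the median and quartiles of all genes tested in each span bin. ABCC1, ABCC4 and ABCA1 lie near -3, while ABCB1, ABCG2 and ABCC5 lie above the upper quartile of -0.91 for genes of their span, taken from the gene's outermost start.

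The other ABC superfamily genes gave a wider view of the same protein fold. Of 40 genes listed, 30 passed the filter; with lurbinectedin 11 were called higher and 15 lower, where 36.0% of all genes tested were called higher and 35.7% lower, so the higher calls are at the background share. Their median log2 difference was -0.78 where that of all genes tested was 0.05. TAP1, a peptide pump of antigen presentation, rose from 14.5 ± 0.199 to 96.8 ± 5.67 CPM (log2 difference 2.74, adjusted p = 8.86e-09, edgeR). ABCA12, a lipid carrier of skin, rose from 5.42 ± 0.276 to between 26.0 and 31.8 CPM (2.42, adjusted p = 1.25e-08). ABCA1, which loads cholesterol onto apolipoproteins, fell from 47.9 to 6.19 CPM (-2.94, adjusted p = 1.65e-08), and ABCG1, another sterol exporter, also fell (-2.46). All 3 ABCF genes, which encode ribosome-associated proteins that are not pumps, were called higher.

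Teriflunomide alone called 2 of these 30 higher, ABCA12 (1.47, adjusted p = 0.000374, edgeR) and ABCC8, a subunit of potassium channels (0.79, adjusted p = 0.0292), and none lower, a share close to the 6.01% of all genes called. In the combination 11 were higher and 13 lower, with a median of -0.37, where 34.1% of all genes were higher and 34.4% lower. ABCA12 was also the one called in the interaction (-1.19, adjusted p = 0.0444, edgeR), where 0.258% of all genes tested were. That adjusted p is near the threshold, and the value of ABCA12 in the alternatives is not given here. Over the whole superfamily of 48 genes, 36 passed the filter, and 6 fell by more than 2 on the log2 scale with lurbinectedin, the shortest of them spanning 78.7 kb. Of the 10 that span over 100 kb, 7 were called lower, and ABCB1, ABCG2 and ABCA12 were not. In the longest bin of all genes, from 82.9 kb, 83.7% were called lower, so this count is no larger than that background.

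Genes around the pumps were read from 5 further lists, whose counts stand against 36.0% of all genes called higher and 35.7% lower with lurbinectedin, and 34.1% and 34.4% in the combination. Among 15 tested regulators of efflux genes, 2 were called higher and 10 lower with lurbinectedin (median -0.66). KEAP1, the brake on NRF2, rose by 0.98, and PPARA, a lipid-sensing nuclear receptor, and RXRA, the partner of the xenobiotic receptor PXR, fell (-3.41 and -2.88). In the combination 3 were higher and 10 lower. Among 5 tested exporters outside the ABC family, MVP, the major vault protein, rose (0.92, adjusted p = 0.0175) and the copper pumps ATP7A and ATP7B fell (-2.95 and -2.61), with SLC47A1 the third to fall; in the combination 3 were lower and none higher.

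Of 18 drug uptake carriers listed, 9 were tested, and 4 were called higher and 3 lower with lurbinectedin (median 0.37). Over all genes 71.6% were called in either direction, so this total is near the background. In the combination the lean turned round, with 2 carriers called higher and 4 lower (median -0.13). SLC29A1, the nucleoside carrier ENT1, rose by 1.18, and SLC31A1, the copper carrier CTR1, fell by 0.36. Of 17 tested enzymes of glutathione and conjugation, which make substrates for ABCC1, ABCC2 and ABCC3, 6 were higher and 7 lower with lurbinectedin (median -0.05), again near the background. In the combination 7 were higher and 8 lower (median -0.23). GSTP1, a glutathione transferase, rose by 1.23 and GCLM, a subunit of the enzyme that starts glutathione synthesis, by 1.10. GSTM4 (-2.57) and MGST2 (-1.62) fell. Teriflunomide alone called GSTA4 (0.69, adjusted p = 0.0103, edgeR) and GSTM3 (0.38, adjusted p = 0.0237) higher. GSTM3 and GSTM4 belong to a family of related genes, and how reads that match several genes were counted is not given in the sources used here. Of 7 tested trafficking and anchoring genes, 2 were higher and 3 lower with lurbinectedin. They were led by NHERF1, a scaffold that binds several ABC pumps (1.19), and RDX, an anchor to actin that holds ABCC2 at the membrane (-1.30). The combination gave the same counts, 2 higher and 3 lower. Teriflunomide alone called none in the lists of regulators, exporters, uptake carriers and trafficking genes, and the combination against lurbinectedin called none in any list.

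The genes with the pattern most like each pump were ranked by Pearson's r of log2 CPM over the 12 libraries, as a description; the libraries share their group and the same totals. ABCC4 was matched most closely by CDKAL1 (0.999), VWA8 and MSI2 (both 0.998), and 2214 of 10435 genes compared had an r over 0.95 with it. ABCC1 was matched by MPRIP, ARHGAP39 and ZNF516 (each 0.998), with 1899 genes over 0.95, and had an r of 0.974 with ABCC4. The other tested pumps had few such matches: 1 gene over 0.95 for ABCC5, 4 for ABCC10, and 0 for ABCB1 and ABCG2. With ABCC5, TIMELESS, a replication fork protein, had 0.986, HDAC6 0.948 and PDE6B 0.937. ABCC10 was nearest to COG4 (0.977), NAXE (0.976) and FAM234A (0.970). For ABCB1 the nearest was POLG2 at 0.933 and for ABCG2 it was OSBP at 0.793, both from sparse counts of the pump.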

How the data were processed

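RNA from 12 libraries of SBC3 spheroids was prepared with an mRNA kit (KAPA mRNA HyperPrep), per the labels' protocols. Per the submitters' processing notes, the authors used fastp 0.23.2, STAR 2.7.9, and featureCounts of Subread with the build hg38; the annotation release, strand setting and treatment of multi-mapping reads are not given in the sources used here. The deposited values are raw counts per gene, not normalized. Gene identifiers were matched to symbols (60507 of 60649), and spans and exon lengths came from the coordinates and lengths deposited with the counts. Of the identifiers, 37318 had the same version in GENCODE 29, and all 37318 had identical start and end there.

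All 12 libraries were fitted together with edgeR 4.0.16 in R 4.3.3 (TMM scaling, filterByExpr, robust quasi-likelihood), 1 mean per group and 6 contrasts, with Benjamini-Hochberg adjustment over 16683 genes and a threshold of 0.05. Intervals cover 95%. DESeq2 1.42.0 was an alternative. The fit was run on simulated counts in which 200 genes were changed by a known fold. Far more genes were called with lurbinectedin (71.6%), so the simulation does not test the scaling in that setting. The p-values measure the spread between these libraries, which may be technical.

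All 8 members are named; genes named from a list are among its 3 strongest rises and 3 strongest falls that passed the test at 5 CPM or more (2 for teriflunomide). The members and lists were chosen with earlier results of these data known. Some genes of these lists are not reported here by name.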

Additional observations from a re-analysis of the deposited data

How the results depend on the processing

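Across 20 alternatives, 1 of them added after seeing the data, ABCC1 and ABCC4 were called lower with lurbinectedin (ABCC1 -3.19 to -2.87, ABCC4 -3.46 to -3.18 on the log2 scale) and in the combination (ABCC1 -2.74 to -2.31, ABCC4 -3.29 to -3.04) against control, and both were also called lower in the combination against teriflunomide in each of them. With teriflunomide alone, where 0 pumps were called, 1 was called without a filter on low counts (ABCC1, lower), 1 by DESeq2 (ABCC5, higher), 0 to 1 when any replicate was left out, and 3 without teriflunomide replicate 3 and combination replicate 2. With both of these left out, 1 pump was called in the combination against lurbinectedin (0 before), 2 in the interaction (0 before) and 2 in the combination against control (3 before). Leaving out single replicates gave 2 to 3 pumps in the combination against control, 2 to 3 with lurbinectedin, 2 to 5 in the combination against teriflunomide and 0 to 1 in the interaction, where the fit with no filter called 1.

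Counts over all genes moved more. For teriflunomide against control, 1002 genes became 265 with library size as the only scaling, 1800 with no filter, 415 with the replicate block, 283 in a fit of only the compared groups, 1907 by DESeq2, 2757 without the 2 libraries named above, and 216 to 1555 over single exclusions. For the combination against lurbinectedin, 0 became 612 with no filter, 94 with only the compared groups, 584 by DESeq2, 3640 without the 2 libraries and 0 to 2067 over single exclusions. For the interaction, 43 became 6 with library size only, 195 with no filter, 8 with the replicate block, 258 by DESeq2, 1839 without the 2 libraries and 2 to 616 over single exclusions. The cause was not tested. With library size only, 39.2% of lurbinectedin calls were higher rather than 50.2%, and 41.0% rather than 49.8% in the combination; the median of all genes moved to -0.18 and -0.13.

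Same-numbered libraries of different groups did not deviate together (median correlation -0.0282 over 18 pairs, against 0.017 over 36 pairs of different numbers), and 2 of 12 correlated best with their own number, so the numbers were not taken to pair the samples. The replicate block ended the 2 calls of ABCB1 and no other call of a pump. Depth limits ABCB1, ABCG2, ABCC2 and ABCC3, none of which had over 67 reads in a library.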
